A study of Mus musculus with 21 samples.

Results

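DNA repair genes were followed as a set of 51 genes, chosen by name from the gene symbols of the deposited table, out of 37310 genes in all. Each of the 51 matched 1 gene identifier, and all 51 passed the filter on low counts that left 16050 genes for testing. They were grouped by role into 11 genes of homologous recombination, 9 of the Fanconi anaemia pathway, 4 checkpoint kinases, 5 of mismatch repair, 5 of end joining, 10 of base excision and single-strand break repair, and 7 of nucleotide excision repair. RNA was measured by bulk RNA sequencing of intestinal Lgr5 cells, which are crypt stem cells, in 21 libraries that form 7 groups of 3.

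Every mouse carried the Lgr5EGFPcre-ERT2 allele, which puts a green fluorescent protein and an inducible Cre recombinase under the Lgr5 promoter, and the sorted cells were the brightest of the fluorescent cells in the dispersed crypts. Mice ate a purified diet from weaning until 3 months of age. The AIN group was fed AIN76A, the reference diet, and the NWD1 and NWD2 groups were fed diets of those names, and the sources used here do not state their makeup. Per the labels, NWD1Ca was NWD1 with calcium at 7.0 mg/g, NWD1VitD was NWD1 with vitamin D at 2.3 IU/g and AINlowVitD was the AIN diet with vitamin D at 0.11 IU/g, each stated per gram of body weight. The AIN_VdrKO group carried a vitamin D receptor (Vdr) knockout besides the Lgr5 allele and ate AIN76A. Males and females were spread unevenly: all NWD1Ca mice were female and all AIN_VdrKO mice were male, so sex was a term in the edgeR fit reported here.

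Cells meet several kinds of DNA damage, and each has its own repair route. Mismatch repair corrects errors left by replication, base excision repair removes single damaged bases, and nucleotide excision repair cuts out bulky lesions. Double-strand breaks are rejoined directly by end joining or copied from the sister chromatid by homologous recombination, and the Fanconi anaemia proteins unhook crosslinks between the strands. The kinases Atm, Atr, Chek1 and Chek2 signal damage to the cell cycle. Many genes of homologous recombination, mismatch repair and the Fanconi pathway are transcribed under E2F factors as cells enter S phase, and crypt stem cells divide often.

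The libraries did not form 1 homogeneous collection, and this bears on every comparison below. Gene counts ran from 19889795 to 115435120 per library. Spike-ins took 24.7% and 20.4% of all counts in NWD1 1 and NWD1 2, and at most 6.48% in any other library. The first principal component, with 43.9% of the variance, put the 9 AIN, NWD1 and NWD2 libraries (called the first set here) at one end, from -104 to -38.6, and the 9 NWD1Ca, NWD1VitD and AINlowVitD libraries (the second set) at the other, from 71.2 to 79.2. The 3 AIN_VdrKO libraries lay between, from -21.9 to 43.8. First-set scores were themselves split by a gap. Those of NWD1 1, AIN 2 and AIN 1 were -42.6, -40.2 and -38.6. AIN 3, NWD1 2, NWD1 3 and every NWD2 library had -90 or below. Comparisons with AIN or NWD1, including those within the set, are therefore unbalanced over this gap. An alternative fit used below omits the libraries above the gap, which keeps AIN 3 as the only AIN library. Mitochondrial ribosomal RNA took 0.234% to 0.965% of counts in first-set libraries, 2.95% to 5.07% in second-set libraries and 1.38% to 2.8% in AIN_VdrKO. Of 81 spike-in RNAs, which are added in the laboratory and not made by the cells, 53 (65.4%) differed between AINlowVitD and AIN, 67 (82.7%) between NWD1Ca and NWD1, 64 (79%) between NWD1VitD and NWD1, and 7 (8.64%) between AIN_VdrKO and AIN. No spike-in differed in any of the 6 comparisons made within a set (AIN 2, with 12 spike-in counts, was left out of these tests). Diet and set therefore cannot be told apart in the 3 comparisons across the sets. In bulk RNA, fewer cells of a type and less RNA per cell cannot be told apart either.

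Values below are CPM, gene counts scaled to a common library total, on library sizes scaled by the trimmed mean of M-values (TMM). Fold changes are log2 values ± standard error from edgeR's quasi-likelihood fit over all 21 libraries, and adjusted p is Benjamini-Hochberg over the 16050 genes, with 0.05 as the threshold. The lowest count of any of the 51 genes in any library was 13, for Fanci in NWD1VitD 3. The highest was 10965, for Parp1 in NWD2 1.

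RefSeq promoters (250 bases before to 50 after the start, mouse build GRCm38.p6) were matched by symbol for 42 of the 51 genes. The E2F letters TTTCCCGC or TTTGGCGC, on either strand, occurred in 7 of the 42 (16.7%) and in 441 of 27025 promoters in all (1.63%). The 7 were Brca2, Bard1, Fancg, Chek2, Msh3, Msh6 and Xrcc6. The letters CCAAT, again on both strands, were in 59.5% of the 42 and in 37.9% of all promoters. TTTGAA was in 4.76% against 18.1%, and the consensus of NRF1, searched by exact match, in 2.38% against 0.977%. Of these, 3 promoters are printed because their genes carry the contrast described below: Fancg and Chek2, which were lower in every second-set group than in its first-set counterpart, and Xpa, which was higher. Fancg and Chek2 are also among the 7 genes with the E2F letters. Most genes lower across the sets lack these letters, so the 3 printed promoters do not represent the 51. Each is the 250 bases before the start on the gene's strand, at chr4:43010302-43010551 (minus strand), chr5:110839733-110839982 (plus strand) and chr4:46196312-46196561 (minus strand). Capitals mark the E2F letters, whose first base lies at -52 in Fancg and, in the reverse orientation, at -152 in Chek2.
Fancg: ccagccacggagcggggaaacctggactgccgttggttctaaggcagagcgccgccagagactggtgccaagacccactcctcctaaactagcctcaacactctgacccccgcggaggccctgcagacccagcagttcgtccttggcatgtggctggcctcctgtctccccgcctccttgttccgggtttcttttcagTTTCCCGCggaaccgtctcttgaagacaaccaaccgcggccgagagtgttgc
Chek2: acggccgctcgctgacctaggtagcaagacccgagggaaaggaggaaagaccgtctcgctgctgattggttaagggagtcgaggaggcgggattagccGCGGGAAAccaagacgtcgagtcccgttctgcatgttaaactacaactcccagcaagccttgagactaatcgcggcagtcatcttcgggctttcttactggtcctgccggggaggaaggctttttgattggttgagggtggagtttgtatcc
Xpa: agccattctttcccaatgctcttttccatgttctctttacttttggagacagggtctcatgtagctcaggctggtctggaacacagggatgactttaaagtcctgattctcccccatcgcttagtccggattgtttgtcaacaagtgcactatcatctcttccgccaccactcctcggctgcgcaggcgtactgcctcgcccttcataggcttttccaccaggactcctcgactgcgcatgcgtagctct
Neither set of E2F letters is in the Xpa window. Among genes that were lower in AINlowVitD than in AIN, 3 of 17 with a promoter held them, against 4 of the 25 that were not lower. The counts were 3 of 16 and 4 of 26 in NWD1Ca against NWD1, and 5 of 25 and 2 of 17 in NWD1VitD against NWD1. A match of letters describes the sequence and does not show that a factor binds there.

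Within the first set no DNA repair gene was called. No gene of the 51 passed in NWD1 against AIN, where 0.766% of all tested genes did, in NWD2 against AIN, where 0% did, or in NWD2 against NWD1, where 0.00623% did. At an unadjusted p under 0.05 the same edgeR fit gave 2, 2 and 0 of the 51, beside 15.2%, 6.85% and 10.7% of all genes. The 2 in NWD1 against AIN were higher, as were 4.85% of all genes, and the 2 in NWD2 against AIN were lower, as were 5.18%. In NWD2 against NWD1 7.41% of all genes were higher and 3.29% lower at that level. In NWD1 against AIN 0.106% of all genes passed the adjusted threshold as higher and 0.66% as lower. The 3 libraries of each group did not overlap for 5 of the 51, all higher, in NWD1 against AIN (5.92% of all genes), for 3, all higher, in NWD2 against AIN (3.98%) and for 1, higher, in NWD2 against NWD1 (4.97%). DESeq2 and limma also called none of the 51 in these comparisons. The 2 genes in NWD1 against AIN were Xrcc5, a subunit of the Ku heterodimer that binds broken ends, at 0.70 ± 0.26 (adjusted p = 0.186), and Ercc2, a helicase of nucleotide excision repair, at 0.81 ± 0.31 (adjusted p = 0.2). Xrcc5 stood at 16, 20.1 and 22.2 CPM in AIN and 31.9, 43.8 and 29.6 in NWD1, so the libraries did not overlap although the test was not passed. The 2 in NWD2 against AIN were Fance at -1.19 ± 0.48 (adjusted p = 0.718) and Xpa at -1.30 ± 0.42 (adjusted p = 0.718).

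The median log2 fold change of the 51 genes was 0.241 in NWD1 against AIN, beside -0.0431 for all genes, and 40 of the 51 lay above 0. It was 0.162 in NWD2 against AIN (all genes, 0) and -0.0855 in NWD2 against NWD1 (all genes, 0.00292). The 95% interval of the fold change lay within 1 log2 unit of 0 for 25, 32 and 35 of the 51 genes in the 3 comparisons, so differences of that size were not excluded for the others. Leaving out AIN 3 gave 3 called genes in NWD2 against AIN, Fance (-1.80), Xpa (-1.90) and Wrn (1.14), named after their values were seen. In NWD2 against AIN the fold changes of the 51 genes ran with gene length (Spearman's rho 0.562 over the 51, against 0.356 over all tested genes). That figure is a description across genes, which share libraries and are not replicates. On the log2(TPM + 1) scale, where TPM is the authors' length-scaled transcript level, the median of the 51 was 0.55 and that of all genes 0.25 in NWD1 against AIN.

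Cell type markers were read beside these comparisons. In NWD1 against AIN, 3 of 22 enterocyte markers were lower and none was higher, and the summed level of the 22 was 20490 to 25720 CPM in AIN, 2746 to 6829 in NWD1 and 4030 to 29300 in NWD2. Sis, the brush-border sucrase, was among the 3. None of 15 Lgr5 stem cell markers passed, and the list's summed level was 2375 to 4456 CPM in AIN, 7111 to 9853 in NWD1, without overlap, and 3298 to 11020 in NWD2. No enterocyte or Lgr5 stem cell marker passed in NWD2 against AIN or NWD2 against NWD1. The part of this in the repair genes' values was not tested.

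Across the sets, genes called lower outnumbered genes called higher among the 51, and Xpa was the 1 called higher in each comparison. In AINlowVitD against AIN, 19 of the 51 (37.3%) were lower and 1 was higher, where 16.3% of all tested genes were lower and 15.1% higher. In NWD1Ca against NWD1, 18 (35.3%) were lower and 1 higher, where 14.9% and 15.6% of all genes were. In NWD1VitD against NWD1, 28 (54.9%) were lower and 1 higher, where 20.6% and 19.9% of all genes were. The median log2 fold changes of the 51 were -0.647, -0.573 and -1.08, beside -0.103, -0.0359 and -0.0326 for all genes. The 3 libraries of each group did not overlap for 24 lower and 3 higher genes of the 51 in AINlowVitD against AIN, where 25.3% and 21.7% of all genes did so. The counts were 29 and 4 in NWD1Ca against NWD1 (24.4% and 26.1% of all genes) and 31 and 2 in NWD1VitD against NWD1 (23.7% and 25% of all genes). DESeq2 called 19, 19 and 30 lower and 4, 3 and 2 higher, where 17%, 16.2% and 21.2% of all genes were lower and 18.5%, 19.1% and 23.4% higher.

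**Figure D1:**
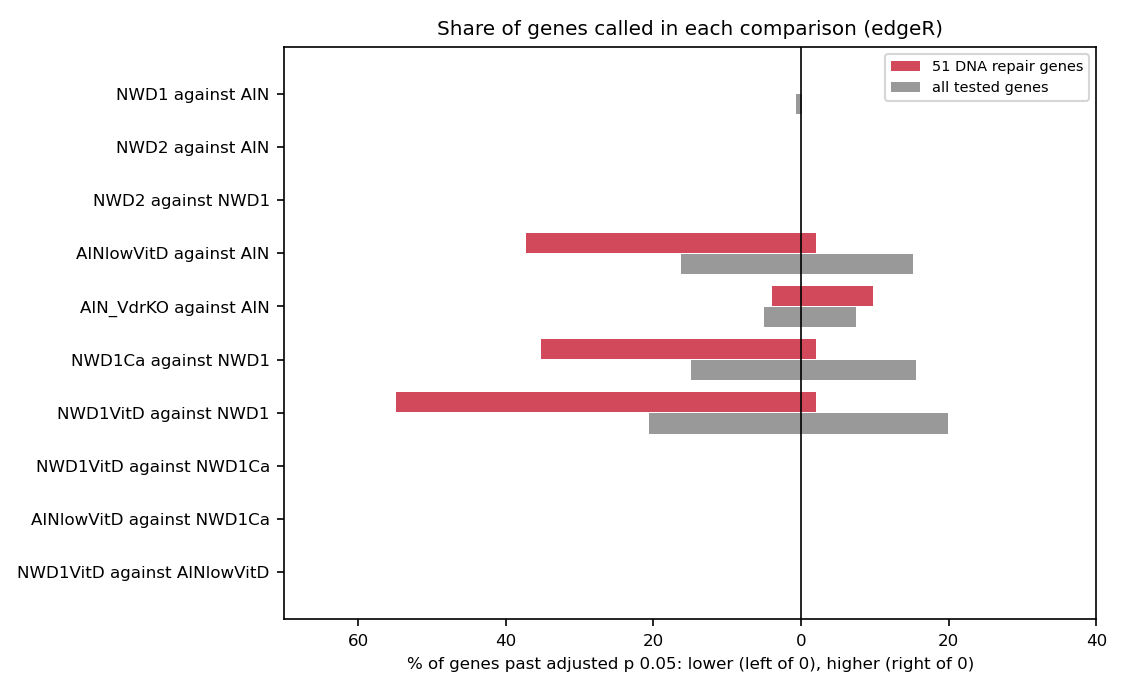
Share of genes past adjusted p 0.05 in each of the 10 comparisons, in percent, with lower genes to the left of 0 and higher genes to the right. Red bars are the 51 DNA repair genes and grey bars all tested genes. The red bars on the left reach 37.3%, 35.3% and 54.9% in the 3 comparisons across the sets, and no red bar is drawn for the 6 comparisons within a set.

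These counts rest partly on single libraries. The 20 calls in AINlowVitD against AIN became 12 without AINlowVitD 1 and 10 without AINlowVitD 3, and the 19 calls in NWD1Ca against NWD1 became 12 without NWD1 3. The fit without AIN 1, AIN 2 and NWD1 1 leaves 1 AIN library. In it, AINlowVitD against AIN lost the calls of Fanca, Fancc, Chek2, Pms2, Xrcc6, Ogg1, Neil3 and Rad54l. Fance, Bard1, Nbn and Ung had 2.28, 2.02, 1.2 and 2.96 there, and Prkdc, Xpc, Wrn and Lig4 had -1.43, -0.869, -0.856 and -1.12. In NWD1Ca against NWD1 the same fit kept 17 of the 19 calls, and in NWD1VitD against NWD1 all 29. The fit without NWD1 1 and NWD1 2 leaves 1 NWD1 library. In it, NWD1Ca against NWD1 lost the calls of Fancc, Chek2, Ogg1, Mutyh and Neil1, and Mlh3 and Bard1 had -1.18 and 1.93. NWD1VitD against NWD1 lost those of Chek1, Ogg1, Mutyh, Neil1 and Apex1, and Atr and Fancb had -1.7 and -1.66. Calls were also gained when 1 library was left out. In AINlowVitD against AIN, Fance, Nbn and Ung passed as higher without AIN 2 (1.77, 0.99 and 2.27), Bard1 without AIN 1 (1.32) and Atm without AIN 3 (1.06), while Msh6 passed as lower without AIN 1 and Exo1 without AINlowVitD 2. In NWD1Ca against NWD1, Fance passed as higher without NWD1 1, Bard1 without NWD1 1 or NWD1Ca 1 and Rad50 without NWD1 2, while Msh3 and Ercc4 passed as lower without NWD1 1 and Apex1 without NWD1 3 or NWD1Ca 2. In NWD1VitD against NWD1, Fance passed as higher and Blm and Fancb as lower without NWD1 1, and Prkdc and Atr as lower without NWD1 1 or NWD1VitD 1. The scale mattered too. On log2(TPM + 1) the median of all tested genes was itself -0.65, -0.782 and -0.947 in the 3 comparisons, and limma called 39, 38 and 48 of the 51 lower and 1 higher, where 45.9%, 51.5% and 60.3% of all genes were lower and 4.57%, 5.15% and 4.36% higher. The medians of the 51 on that scale were -1.18, -1.54 and -1.90. Of the 51, 49, 50 and 50 were then below 0, the exceptions being Xpa and, in AINlowVitD against AIN, Ung. A fold change above 0 given below for a gene other than Xpa therefore holds on the CPM scale, and directions are relative to the shift of all genes.

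The genes called lower in the 3 comparisons overlapped. All 19 genes lower in AINlowVitD against AIN were among the 28 lower in NWD1VitD against NWD1 (100% of the first list and 67.9% of the second), where the same shares over all genes were 78.9% and 62.4%. These 2 comparisons share no library. Of the 19, 14 were also lower in NWD1Ca against NWD1 (73.7% and 77.8%, where all genes gave 66.2% and 72.2%). The comparisons of NWD1Ca and NWD1VitD use the same NWD1 libraries, so their values are given side by side only.

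**Figure D2:**
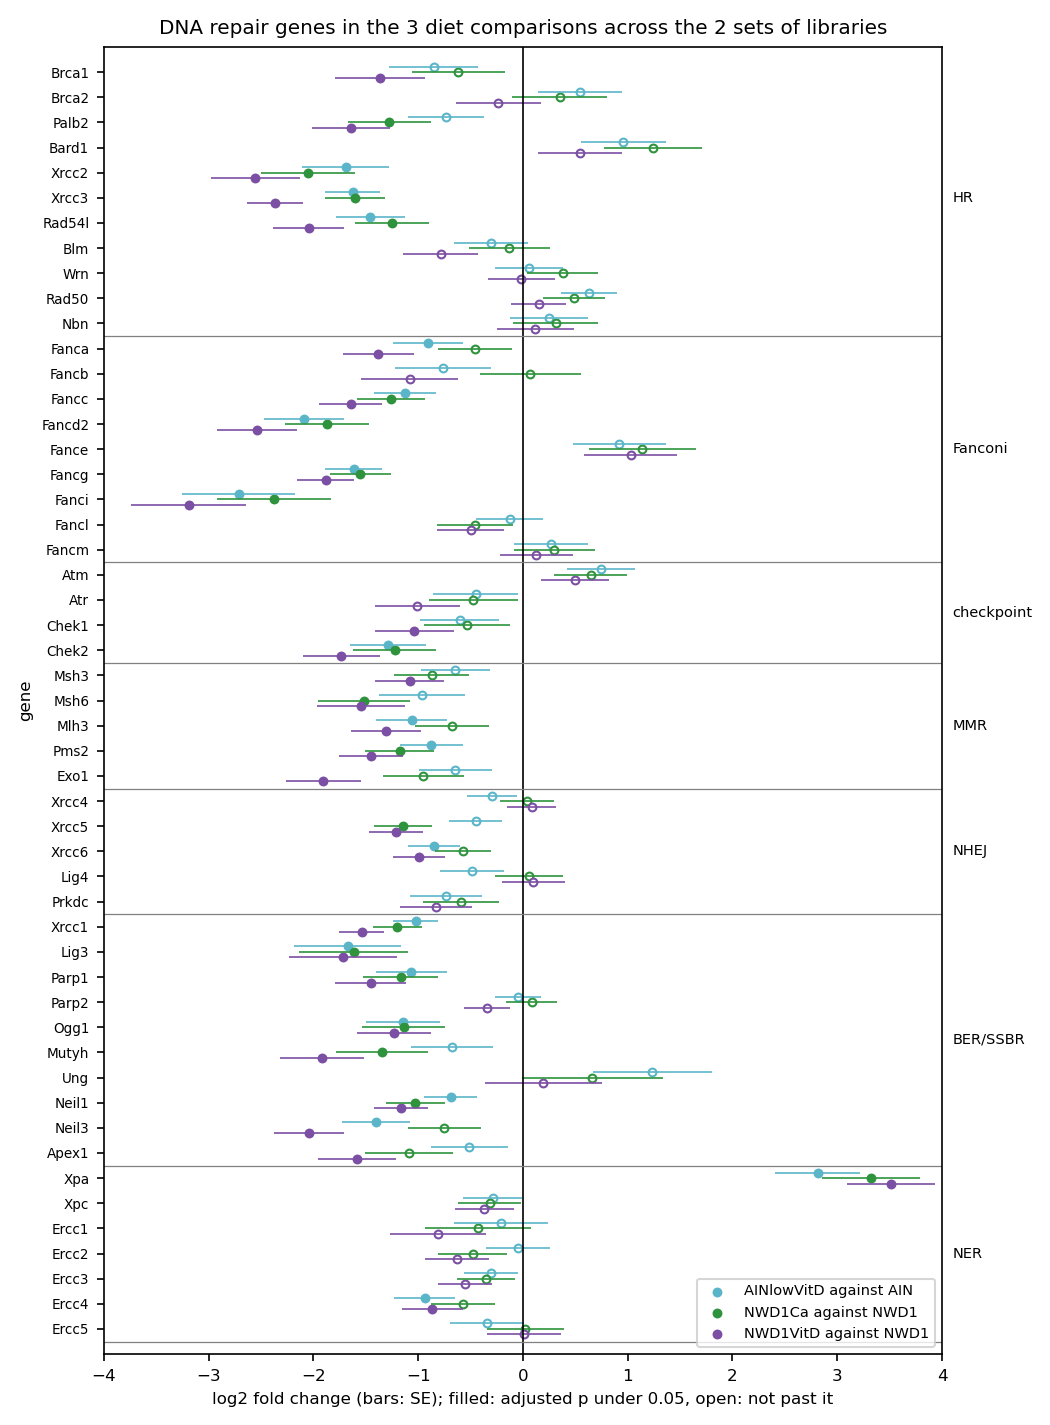
Log2 fold change of each of the 51 genes (horizontal axis, with standard error bars) in the 3 diet comparisons across the 2 sets, grouped by repair route. Filled points passed adjusted p 0.05 and open points did not. Xpa is the single filled gene right of 0, and Fanci lies furthest left, at -2.71, -2.37 and -3.19.

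Taking the sets whole, 16 of the 51 genes were lower in all 9 second-set libraries than in any of the 9 first-set libraries, where 12.1% of all tested genes were. Xpa alone was higher in all 9, where 12.5% of all genes were. The 16 were Xrcc2, Xrcc3, Rad54l, Fancc, Fancd2, Fancg, Fanci, Chek2, Pms2, Exo1, Xrcc6, Xrcc1, Lig3, Ogg1, Neil1 and Neil3. Every route except nucleotide excision repair was among them.

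**Figure D3:**
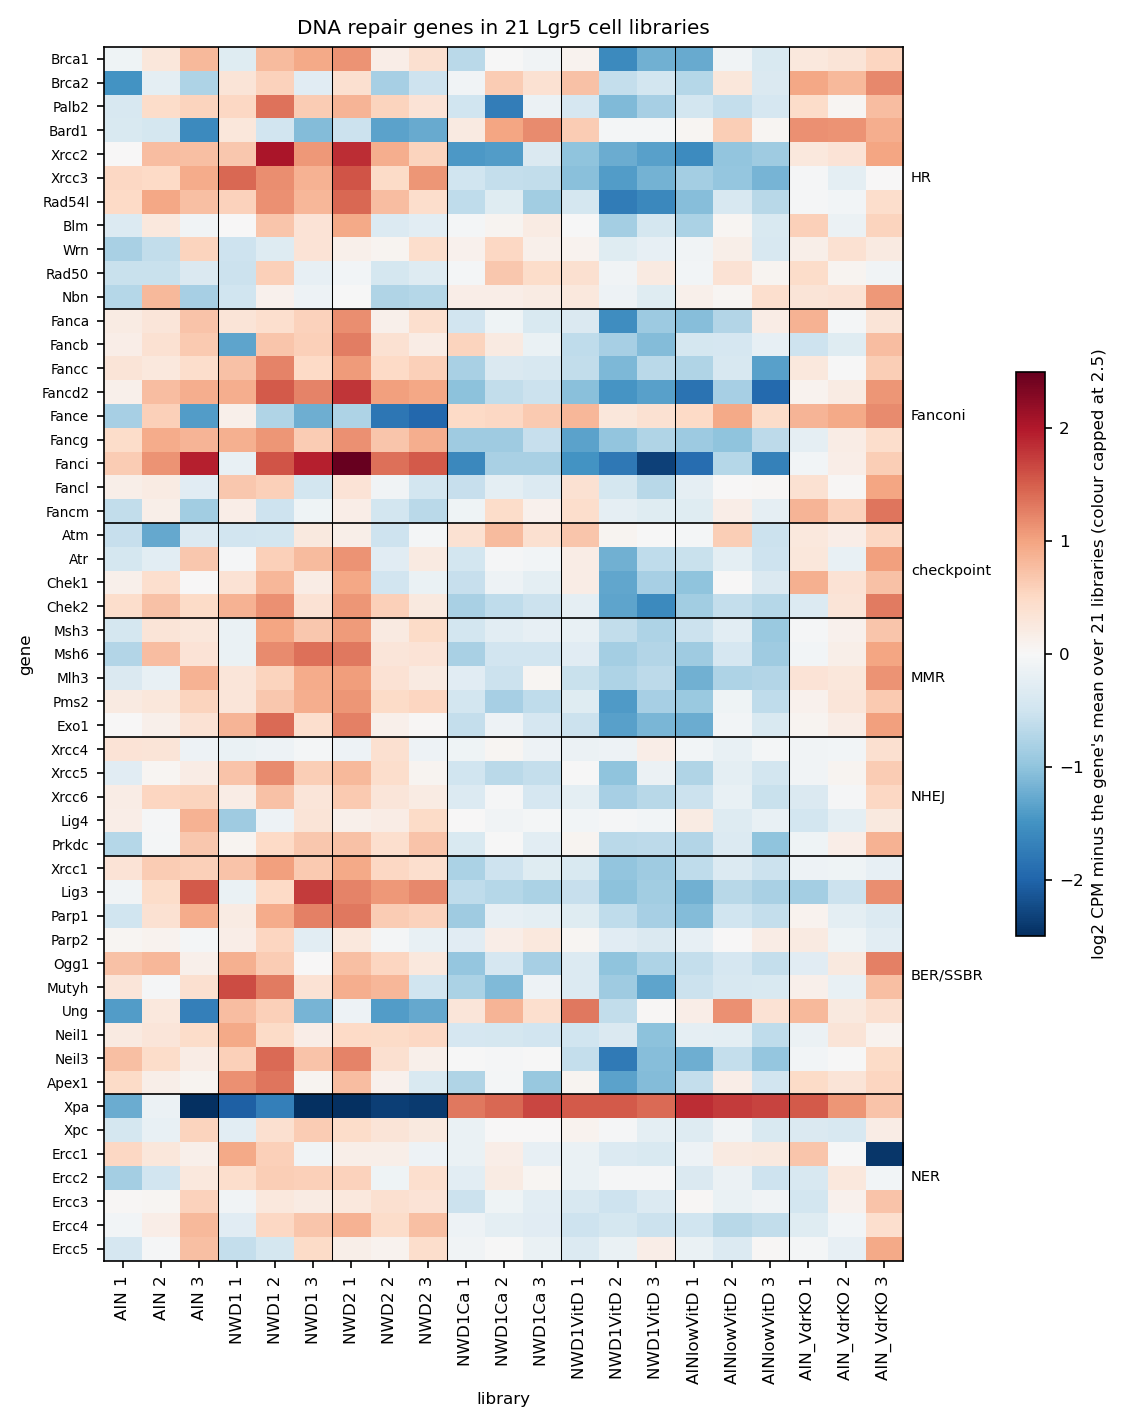
Heat map of log2 CPM of the 51 genes (rows, grouped by repair route) in the 21 libraries (columns), each gene shown as its difference from its own mean, with colour capped at 2.5. The 9 libraries of the first set are mostly red and the 9 of the second mostly blue for the 16 genes without overlap, and Xpa has the opposite colours.

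Xpa (ENSMUSG00000028329.7) encodes the protein that verifies a lesion during nucleotide excision repair. It stood at 2.95, 6.3 and 1.18 CPM in AIN, 1.69, 2.12 and 1.23 in NWD1 and 1.17, 1.36 and 1.32 in NWD2. In the second set it stood at 17.3, 18.9 and 22.1 CPM in NWD1Ca, 20.2, 20.2 and 18.5 in NWD1VitD and 25.2, 23.4 and 22.5 in AINlowVitD. AIN_VdrKO held 20.3, 14.9 and 11.4 CPM. All 12 libraries outside the first set were therefore above all 9 within it, and AIN 2 was the highest of the first set. The ratio of the second set's median to the first set's was 14.9. The log2 fold changes were 2.81 ± 0.41 in AINlowVitD against AIN (adjusted p = 0.00015), 3.32 ± 0.47 in NWD1Ca against NWD1 (adjusted p = 0.00014) and 3.52 ± 0.42 in NWD1VitD against NWD1 (adjusted p = 1.78e-05). In AIN_VdrKO against AIN the value was 2.38 ± 0.46 (adjusted p = 0.00281). Xpa kept these 4 calls under every alternative fit tried, including DESeq2, TPM, length and GC offsets and the omission of any 1 library. The longest exon stretch it shares with Ncbp1 on the opposite strand is 77 bases in the GENCODE M21 annotation, and the library kit does not mark strand. Ncbp1, a subunit of the nuclear cap-binding complex, had values of -0.68 ± 0.32, -0.92 ± 0.35, -0.995 ± 0.326 and 0.05 ± 0.36 in the same 4 comparisons, so it was not higher where Xpa was. It passed, as lower, in NWD1VitD against NWD1 (adjusted p = 0.0207).

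The other genes of nucleotide excision repair showed little difference across the sets in the reported edgeR fit. Of 7, 1 was lower in AINlowVitD against AIN, none in NWD1Ca against NWD1 and 1 in NWD1VitD against NWD1. That gene was Ercc4 (ENSMUSG00000022545.7), the catalytic subunit of the Ercc1-Ercc4 nuclease that cuts beside a lesion. It stood at 9.43, 11.1 and 17.3 CPM in AIN, 8.11, 14.2 and 16.1 in NWD1 and 18.2, 13.7 and 16.7 in NWD2. NWD1Ca held 9.06, 8.4 and 8.18 CPM, NWD1VitD 6.92, 7.31 and 6.82, and AINlowVitD 7, 6.17 and 6.52. The fold changes were -0.94 ± 0.29 in AINlowVitD against AIN (adjusted p = 0.0203), -0.57 ± 0.31 in NWD1Ca against NWD1 (adjusted p = 0.163) and -0.87 ± 0.29 in NWD1VitD against NWD1 (adjusted p = 0.0231). The call in AINlowVitD against AIN was lost without AIN 3, AINlowVitD 2 or AINlowVitD 3, and the call in NWD1VitD against NWD1 was lost without any 1 of 5 libraries (NWD1 2, NWD1 3 and each NWD1VitD library). Its partner Ercc1 stood at 17, 14.5 and 13.1 CPM in AIN, 22.9, 18.1 and 11.2 in NWD1 and 13.2, 13.2 and 11 in NWD2. NWD1Ca held 10.6, 13.4 and 10.4 CPM, NWD1VitD 10.6, 9.48 and 9.19, and AINlowVitD 10.9, 13.9 and 14.2. AIN_VdrKO held 19.2, 11.8 and 2.22 CPM, the last below the other 20 libraries, which held 9.19 or more. Ercc1 passed in no comparison in edgeR, and its largest difference across the sets was -0.81 ± 0.45 (adjusted p = 0.162). Xpc, which finds lesions, and Ercc3 and Ercc5, a helicase and a nuclease of the pathway, passed in no comparison of the reported edgeR fit. Without AIN 1, AIN 2 and NWD1 1, edgeR called Xpc lower in NWD1Ca against NWD1 (-0.587) and NWD1VitD against NWD1 (-0.547). In that fit, which leaves 1 AIN library, Xpc had -0.869 in AINlowVitD against AIN and -0.796 in AIN_VdrKO against AIN. On log2(TPM + 1), limma called Ercc1, Ercc3 and Xpc lower in AINlowVitD against AIN, NWD1Ca against NWD1 and NWD1VitD against NWD1. Of all genes, 45.9%, 51.5% and 60.3% were lower there. Limma also called Ercc5 lower in the first and last of these, and Ercc2 in the last 2. The difference between routes was not tested.

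Fanci, of the Fanconi anaemia pathway, was the furthest below 0 of the 51 in each of the 3 comparisons. Fanci and Fancd2 form the clamp that is ubiquitinated at a crosslink, and the core complex that modifies it includes Fanca, Fancb, Fancc, Fance, Fancg, Fancl and Fancm. Of the 9 genes, 5 were lower in AINlowVitD against AIN (Fanca, Fancc, Fancd2, Fancg, Fanci), 4 in NWD1Ca against NWD1 (those without Fanca) and 5 in NWD1VitD against NWD1. None was higher. The medians of the 9 were -0.905, -0.459 and -1.38.

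Fanci (ENSMUSG00000039187.9) stood at 4.47, 6.34 and 11.2 CPM in AIN, 2.55, 8.64 and 11.2 in NWD1 and 16.2, 7.49 and 8.38 in NWD2. NWD1Ca held 0.941, 1.66 and 1.65 CPM, NWD1VitD 1.03, 0.843 and 0.572, and AINlowVitD 0.768, 1.76 and 0.894. AIN_VdrKO held 2.75, 3.26 and 4.44 CPM. The second set lay below the first without overlap, and NWD1 1 was the lowest first-set library. Fold changes were -2.71 ± 0.54 in AINlowVitD against AIN (adjusted p = 0.0014), -2.37 ± 0.54 in NWD1Ca against NWD1 (adjusted p = 0.00367) and -3.19 ± 0.55 in NWD1VitD against NWD1 (adjusted p = 0.000267). The call in NWD1Ca against NWD1 was lost without NWD1 3. Fanci shares an exon stretch of 398 bases with Polg, the mitochondrial DNA polymerase gene, on the opposite strand, and Polg had -0.70 ± 0.38, -1.01 ± 0.40 and -1.01 ± 0.38, of which the last passed (adjusted p = 0.0406).

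Fancd2 (ENSMUSG00000034023.9) stood at 6.58, 10.3 and 11.4 CPM in AIN, 11.4, 17.5 and 14.4 in NWD1 and 21, 12.3 and 11.9 in NWD2. NWD1Ca held 2.97, 3.95 and 4.2 CPM, NWD1VitD 2.92, 2.18 and 2.38, and AINlowVitD 1.69, 3.39 and 1.57. AIN_VdrKO held 6.46, 6.96 and 13.1 CPM, overlapping AIN and above the second set. Fold changes were -2.09 ± 0.38 in AINlowVitD against AIN (adjusted p = 0.00075), -1.87 ± 0.40 in NWD1Ca against NWD1 (adjusted p = 0.00227) and -2.54 ± 0.38 in NWD1VitD against NWD1 (adjusted p = 9.41e-05), and each call was kept under every alternative. Between Fanci and Fancd2, the ratio of TPM values had a median of 0.934 (range 0.308 to 1.35) in the 9 first-set libraries and 0.543 (0.331 to 0.787) in the 9 second-set libraries, so the ranges overlapped.

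Fancg (ENSMUSG00000028453.4), the core component whose promoter is printed above, stood at 8.21, 11.4 and 10.7 CPM in AIN, 11.1, 12.8 and 9.26 in NWD1 and 13.2, 9.67 and 11.2 in NWD2. In the second set it stood at 3.22, 3.24 and 3.98 CPM in NWD1Ca, 2.37, 3.02 and 3.52 in NWD1VitD and 3.17, 2.97 and 3.77 in AINlowVitD. The 9 second-set values were closely spaced and all below 8.21, the lowest of the first set. AIN_VdrKO lay between, at 5.09, 6.79 and 8.07 CPM. Fold changes were -1.62 ± 0.27 in AINlowVitD against AIN (adjusted p = 0.000409), -1.55 ± 0.29 in NWD1Ca against NWD1 (adjusted p = 0.000972) and -1.88 ± 0.27 in NWD1VitD against NWD1 (adjusted p = 6.81e-05), each kept under every alternative.

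Fanca and Fancc lie in the core complex. The Fanca call in AINlowVitD against AIN was lost without any 1 AIN library, AINlowVitD 1 or AINlowVitD 2, and that of Fancc without AINlowVitD 3. The remaining Fanconi genes were not called in the reported edgeR fit. Fance had 0.92 ± 0.44, 1.14 ± 0.51 and 1.03 ± 0.44, above 0 in each comparison on the CPM scale but -0.02, -0.09 and -0.38 on the TPM scale, without passing (adjusted p = 0.121, 0.0971 and 0.0703). Fancm, the helicase that brings the core complex to DNA, had 0.27 ± 0.35, 0.30 ± 0.38 and 0.13 ± 0.35, and was below 0 on the TPM scale. Fancl, the ubiquitin ligase of the core complex, had -0.13 ± 0.32, -0.46 ± 0.36 and -0.50 ± 0.32. Fancf, a core component outside the 51, was higher in all 3 comparisons, at 2.77 ± 0.40, 2.81 ± 0.45 and 2.71 ± 0.40 (adjusted p = 0.00015, 0.000335 and 8.77e-05).

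**Figure D4:**
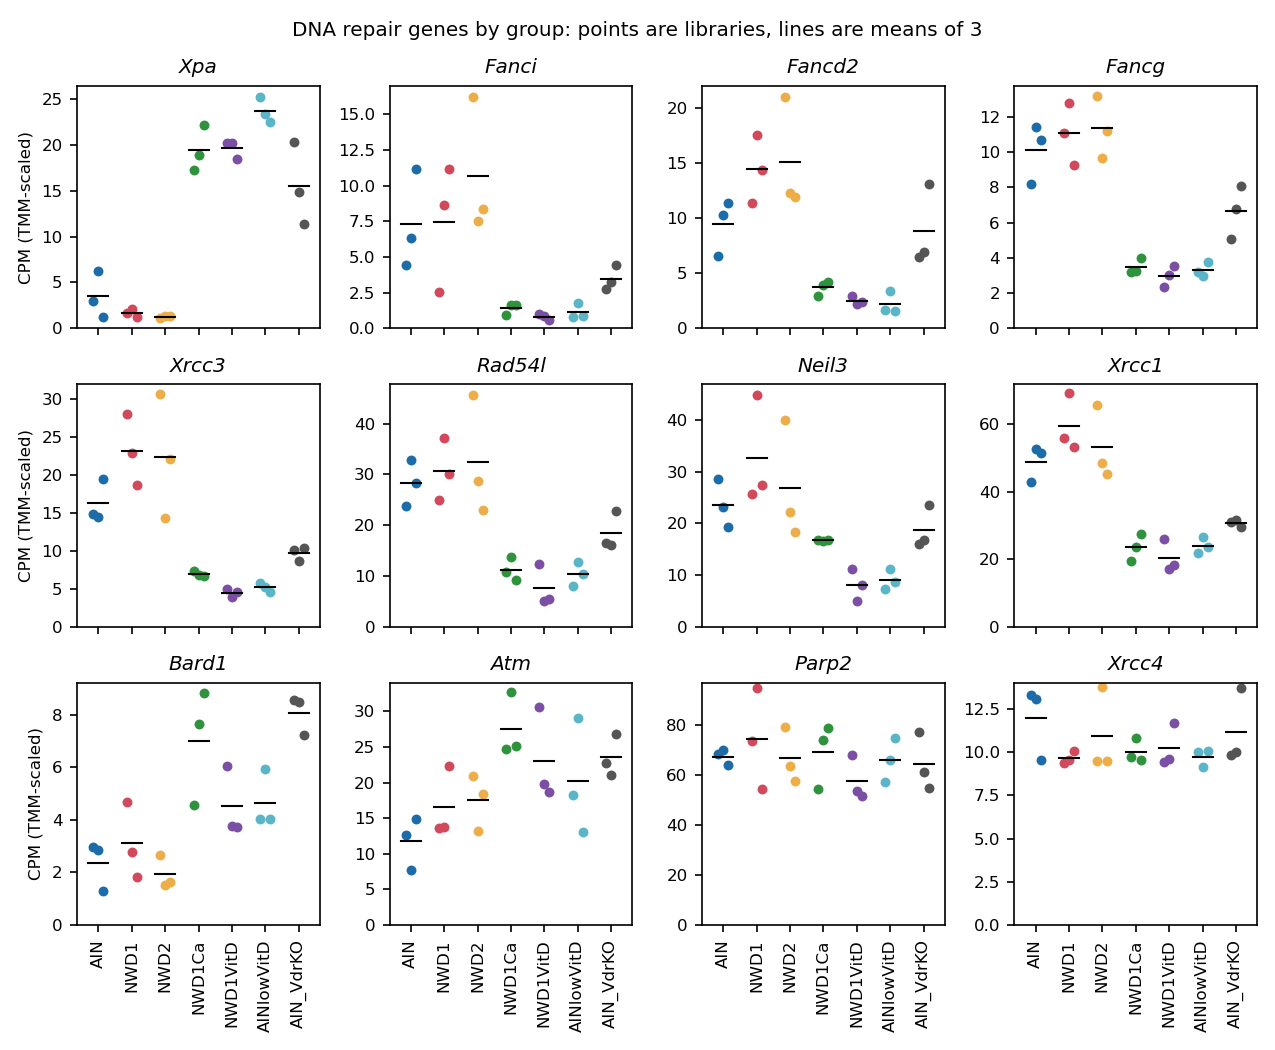
CPM of 12 DNA repair genes in each library (points) by group, with the mean of 3 as a line and a linear axis from 0 in each panel. In the panels of Fanci, Fancd2, Fancg, Xrcc3, Rad54l, Neil3 and Xrcc1 the 9 libraries of NWD1Ca, NWD1VitD and AINlowVitD all lie below the 9 of AIN, NWD1 and NWD2, in the panel of Xpa they all lie above, and in those of Parp2 and Xrcc4 the ranges overlap.

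Homologous recombination was lower in part of its genes. Of its 11 genes, 3 were lower in AINlowVitD against AIN (Xrcc2, Xrcc3, Rad54l), 4 in NWD1Ca against NWD1 (Palb2 besides) and 5 in NWD1VitD against NWD1 (Brca1 besides). None was higher. Of all tested genes, 16.3%, 14.9% and 20.6% were lower. The medians of the 11 were -0.307, -0.129 and -0.783. Xrcc2 and Xrcc3 assist the strand exchange step of recombination and Rad54l remodels DNA during it.

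Xrcc3 (ENSMUSG00000021287.6) stood at 14.8, 14.5 and 19.5 CPM in AIN, 28, 22.9 and 18.7 in NWD1 and 30.6, 14.3 and 22.1 in NWD2. NWD1Ca held 7.33, 6.82 and 6.68 CPM, NWD1VitD 4.98, 3.93 and 4.53, and AINlowVitD 5.72, 5.27 and 4.63. AIN_VdrKO lay in the gap between them, at 10.1, 8.7 and 10.4 CPM. Fold changes were -1.62 ± 0.26 in AINlowVitD against AIN (adjusted p = 0.000351), -1.61 ± 0.29 in NWD1Ca against NWD1 (adjusted p = 0.000683) and -2.37 ± 0.27 in NWD1VitD against NWD1 (adjusted p = 1.14e-05), each kept under every alternative. Rad54l (ENSMUSG00000028702.9) stood at 23.8, 32.8 and 28.2 CPM in AIN, 24.9, 37.1 and 30 in NWD1 and 45.7, 28.6 and 22.9 in NWD2. NWD1Ca held 10.8, 13.7 and 9.16 CPM, NWD1VitD 12.3, 4.99 and 5.5, and AINlowVitD 8, 12.7 and 10.4. The sets did not overlap. Fold changes were -1.46 ± 0.33 in AINlowVitD against AIN (adjusted p = 0.00324), -1.25 ± 0.35 in NWD1Ca against NWD1 (adjusted p = 0.0127) and -2.04 ± 0.34 in NWD1VitD against NWD1 (adjusted p = 0.000184). The NWD1Ca call was lost without NWD1 3 or NWD1Ca 3. Over the alternative fits the Rad54l value in AINlowVitD against AIN ran from -1.93 to -1.13. That call was lost without AIN 1, AIN 2 and NWD1 1, a fit that leaves 1 AIN library. Rad54l shares an exon stretch of 721 bases on the opposite strand with Lrrc41, which was itself lower in all 3 comparisons (-1.44 ± 0.40, -1.78 ± 0.42 and -1.76 ± 0.40), so without strand the reads of the shared stretch cannot be assigned to either. Xrcc2 had -1.69 ± 0.42, -2.05 ± 0.45 and -2.56 ± 0.43, and ran from 3.53 to 14.4 CPM in the first set and from 1.18 to 2.73 in the second. The Palb2 call in NWD1Ca against NWD1 was lost without NWD1 2, NWD1 3 or NWD1Ca 2.

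Brca1 and Bard1, which work as 1 ubiquitin ligase, differed in direction on the CPM scale. Brca1 (ENSMUSG00000017146.6) stood at 8.27, 10.9 and 15.6 CPM in AIN, 7.28, 15.4 and 17.1 in NWD1 and 19.4, 9.98 and 11.7 in NWD2. NWD1Ca held 5.6, 8.86 and 8.42 CPM, NWD1VitD 9.49, 2.95 and 3.87, and AINlowVitD 3.71, 8.41 and 6.87. AIN 1 and NWD1 1 lay within the range of the second set. Fold changes were -0.85 ± 0.42 in AINlowVitD against AIN (adjusted p = 0.132), -0.62 ± 0.44 in NWD1Ca against NWD1 (adjusted p = 0.3) and -1.36 ± 0.43 in NWD1VitD against NWD1 (adjusted p = 0.0174), and the last call was lost without NWD1 2, NWD1 3, NWD1VitD 2 or NWD1VitD 3. Bard1 (ENSMUSG00000026196.7) stood at 2.97, 2.86 and 1.29 CPM in AIN, 4.69, 2.79 and 1.83 in NWD1 and 2.67, 1.53 and 1.62 in NWD2. NWD1Ca held 4.56, 7.65 and 8.85 CPM, NWD1VitD 6.05, 3.76 and 3.74, and AINlowVitD 4.03, 5.93 and 4.02. Fold changes were 0.96 ± 0.41, 1.24 ± 0.47 and 0.54 ± 0.40, above 0 on the CPM scale without passing (adjusted p = 0.0798, 0.051 and 0.292) and below 0 on the TPM scale (-0.05, -0.01 and -0.48). The Brca1 to Bard1 ratio of TPM had a median of 4.36 (range 1.04 to 8.08) over the first set, of 0.773 (0.524 to 1.14) over the second and of 0.877 (0.831 to 1.2) in AIN_VdrKO. The ranges of the 2 sets met only between 1.04 and 1.14.

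Rad50 and Nbn, which with Mre11 form the complex that senses and trims broken ends, were not called lower in edgeR. Rad50 stood at 31.1, 31 and 35.5 CPM in AIN, 31.6, 69.3 and 39.8 in NWD1 and 43.5, 33.8 and 36.6 in NWD2. In the second set it stood at 44.4, 73 and 62.9 CPM in NWD1Ca, 60, 43 and 53.1 in NWD1VitD and 43.7, 58.8 and 48 in AINlowVitD. Fold changes were 0.63 ± 0.27 (adjusted p = 0.0772), 0.49 ± 0.29 (adjusted p = 0.215) and 0.15 ± 0.27 (adjusted p = 0.68), and on the TPM scale -0.50, -0.75 and -1.29. Nbn stood at 12.2, 35.1 and 11.3 CPM in AIN, 14.2, 21.7 and 18.3 in NWD1 and 20, 11.9 and 12.2 in NWD2. NWD1Ca held 22.5, 22.5 and 23 CPM, NWD1VitD 24.1, 18.4 and 16.3, and AINlowVitD 21.9, 20.8 and 26.7. AIN 2 was high among its group and the sets overlapped. The intervals of the Nbn fold change were -0.48 to 0.97, -0.48 to 1.1 and -0.60 to 0.84 on the log2 CPM scale, while its TPM values were -0.67, -0.92 and -1.36. The Rad50 to Nbn ratio of TPM was alike in median, 1.19 in the first set and 1.17 in the second, with ranges of 0.412 to 1.49 and 0.841 to 1.52. Brca2, a mediator of recombination, had 0.54 ± 0.40, 0.35 ± 0.45 and -0.23 ± 0.40, all below 0 on the TPM scale (-0.30, -0.67 and -1.14). Blm and Wrn, helicases of the RecQ family, did not pass in any comparison in the reported edgeR fit. On log2(TPM + 1), limma called Blm lower in all 3 comparisons and Wrn in NWD1VitD against NWD1.

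Among the checkpoint kinases Chek2 was lower in all 3 comparisons. Chek1 passed in NWD1VitD against NWD1 alone, at -1.04 ± 0.38 (adjusted p = 0.0354), a call lost without NWD1 2, NWD1 3, NWD1VitD 2 or NWD1VitD 3. The difference between comparisons was not tested. Chek2 (ENSMUSG00000029521.3), the kinase activated by Atm after a break, stood at 36.6, 44.5 and 37.6 CPM in AIN, 49, 59.4 and 34.5 in NWD1 and 58.1, 40.4 and 31.8 in NWD2. NWD1Ca held 15.3, 17.3 and 18.6 CPM, NWD1VitD 23, 10.8 and 8.97, and AINlowVitD 14.8, 17.9 and 16.3. The sets did not overlap. AIN_VdrKO spanned both, at 21.3, 33.7 and 66.4 CPM. Fold changes were -1.28 ± 0.36 in AINlowVitD against AIN (adjusted p = 0.012), -1.23 ± 0.40 in NWD1Ca against NWD1 (adjusted p = 0.0262) and -1.74 ± 0.37 in NWD1VitD against NWD1 (adjusted p = 0.00128). The first of these calls was lost without AINlowVitD 3, and the second without NWD1 2, NWD1 3 or any 1 NWD1Ca library. Atm (ENSMUSG00000034218.8), the kinase that senses breaks, was above 0 on the CPM scale without passing, and below 0 on the TPM scale (-0.27, -0.53 and -0.83). It stood at 12.7, 7.75 and 14.9 CPM in AIN, 13.6, 13.8 and 22.4 in NWD1 and 20.9, 13.2 and 18.4 in NWD2. NWD1Ca held 24.7, 32.8 and 25.1 CPM, NWD1VitD 30.6, 19.8 and 18.7, and AINlowVitD 18.3, 29.1 and 13.1. Fold changes were 0.75 ± 0.33 in AINlowVitD against AIN (adjusted p = 0.0884), 0.65 ± 0.35 in NWD1Ca against NWD1 (adjusted p = 0.163) and 0.50 ± 0.32 in NWD1VitD against NWD1 (adjusted p = 0.227). Atr, its counterpart at stalled forks, had -0.45 ± 0.41, -0.47 ± 0.43 and -1.01 ± 0.41 and did not pass in the reported edgeR fit. In NWD1VitD against NWD1 it passed as lower under some alternatives with all libraries. Among them were edgeR without the low-count filter (-1.07, adjusted p = 0.0173), edgeR with gene length offsets (-0.935, adjusted p = 0.0398) and DESeq2 (-0.952, adjusted p = 0.0478).

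All 5 mismatch repair genes were lower in NWD1VitD against NWD1, with a median of -1.45. In AINlowVitD against AIN 2 of 5 passed (Mlh3 and Pms2) and in NWD1Ca against NWD1 2 of 5 (Msh6 and Pms2), with medians of -0.874 and -0.949. Msh3 and Msh6 recognise mispairs, Mlh3 and Pms2 belong to the complexes that nick the strand, and Exo1 is the exonuclease that removes it.

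Pms2 (ENSMUSG00000079109.4) stood at 10.5, 10.9 and 13.2 CPM in AIN, 11, 14.3 and 16.7 in NWD1 and 19.2, 12.5 and 13 in NWD2. NWD1Ca held 6.49, 5.07 and 5.79 CPM, NWD1VitD 7.23, 3.37 and 5.01, and AINlowVitD 4.73, 8.29 and 5.78, wholly below the first set. Fold changes were -0.87 ± 0.30 in AINlowVitD against AIN (adjusted p = 0.0351), -1.18 ± 0.33 in NWD1Ca against NWD1 (adjusted p = 0.0112) and -1.45 ± 0.31 in NWD1VitD against NWD1 (adjusted p = 0.00136). The first call was lost without any 1 of 5 libraries (each AIN library, AINlowVitD 1 and AINlowVitD 3), and the second without NWD1 3. Mlh3 (ENSMUSG00000021245.7) stood at 5.88, 6.69 and 13.8 CPM in AIN, 9.28, 11.1 and 14.4 in NWD1 and 15.5, 9.65 and 8.8 in NWD2. In the second set it stood at 6.24, 5.2 and 7.87 CPM in NWD1Ca, 5.14, 4.46 and 4.79 in NWD1VitD and 3.29, 4.42 and 4.54 in AINlowVitD, and the sets overlapped. Fold changes were -1.06 ± 0.34 in AINlowVitD against AIN (adjusted p = 0.0228), -0.68 ± 0.35 in NWD1Ca against NWD1 (adjusted p = 0.15) and -1.31 ± 0.34 in NWD1VitD against NWD1 (adjusted p = 0.00515). The first call was lost without AIN 3, AINlowVitD 1 or AINlowVitD 3, and that in NWD1VitD against NWD1 without NWD1 3.

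Msh6 (ENSMUSG00000005370.3) stood at 20, 56.3 and 42.1 CPM in AIN, 29.7, 75.4 and 85.8 in NWD1 and 82.3, 40.8 and 42.1 in NWD2. NWD1Ca held 19, 23.9 and 23.7 CPM, NWD1VitD 27.1, 18.4 and 20, and AINlowVitD 18, 24.9 and 17.9. AIN 1 was the lowest of the first set and lay within the range of the second. Fold changes were -0.96 ± 0.41 in AINlowVitD against AIN (adjusted p = 0.082), -1.52 ± 0.44 in NWD1Ca against NWD1 (adjusted p = 0.0145) and -1.54 ± 0.42 in NWD1VitD against NWD1 (adjusted p = 0.00719). The NWD1Ca call was lost without NWD1 3 or NWD1Ca 1. Msh3 (ENSMUSG00000014850.8) stood at 10.6, 17.8 and 17.4 CPM in AIN, 12.7, 28.3 and 22.9 in NWD1 and 30, 16.7 and 19.9 in NWD2. NWD1Ca held 10.4, 11.9 and 12.4 CPM, NWD1VitD 12.5, 9.31 and 8.4, and AINlowVitD 9.91, 11.9 and 7.54. Fold changes were -0.65 ± 0.33 in AINlowVitD against AIN (adjusted p = 0.141), -0.87 ± 0.35 in NWD1Ca against NWD1 (adjusted p = 0.0682) and -1.08 ± 0.33 in NWD1VitD against NWD1 (adjusted p = 0.0137), and the call was lost without NWD1 2, NWD1VitD 2 or NWD1VitD 3. The Msh3 to Msh6 ratio of TPM was 0.152 to 0.303 in the first set and 0.24 to 0.314 in the second. Exo1 had -0.65 ± 0.35, -0.95 ± 0.38 and -1.91 ± 0.36, and in the reported edgeR fit the last passed, a call kept under every alternative.

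Of the 5 end joining genes, 1 was lower in AINlowVitD against AIN (Xrcc6), 1 in NWD1Ca against NWD1 (Xrcc5) and 2 in NWD1VitD against NWD1 (both), and none was higher. Xrcc5 and Xrcc6 are the Ku subunits. Xrcc6 (Ku70, ENSMUSG00000022471.7) stood at 61.7, 78.4 and 79.7 CPM in AIN, 61.8, 89.8 and 66.9 in NWD1 and 84.7, 66.9 and 62.7 in NWD2. NWD1Ca held 42.7, 53 and 40.5 CPM, NWD1VitD 45.8, 30.6 and 33.5, and AINlowVitD 37.3, 47.5 and 36.7, without overlap. Fold changes were -0.85 ± 0.25 in AINlowVitD against AIN (adjusted p = 0.0146), -0.57 ± 0.27 in NWD1Ca against NWD1 (adjusted p = 0.114) and -0.997 ± 0.248 in NWD1VitD against NWD1 (adjusted p = 0.00403), and the first call was lost without AINlowVitD 1 or AINlowVitD 3. Xrcc5 (Ku80, ENSMUSG00000026187.8) stood in the first set at the AIN and NWD1 values given above and at 34.1, 26.2 and 20.4 CPM in NWD2. NWD1Ca held 13.7, 12.2 and 12.8 CPM, NWD1VitD 19.3, 9.66 and 17.6, and AINlowVitD 11.6, 16.5 and 14.2. Fold changes were -0.45 ± 0.25 in AINlowVitD against AIN (adjusted p = 0.181), -1.15 ± 0.28 in NWD1Ca against NWD1 (adjusted p = 0.00494) and -1.21 ± 0.26 in NWD1VitD against NWD1 (adjusted p = 0.00125), and the NWD1Ca and NWD1VitD calls were kept under every alternative. The Xrcc5 to Xrcc6 ratio of TPM was 0.449 to 0.904 in the first set and 0.404 to 0.919 in the second. Xrcc4 and Lig4, which seal the break together, had 0.08 ± 0.24 and 0.10 ± 0.30 in NWD1VitD against NWD1, with intervals of -0.38 to 0.55 and -0.49 to 0.69, while their TPM values were -1.20 and -1.17. Prkdc, the kinase that Ku recruits, did not pass in NWD1VitD against NWD1 in the reported edgeR fit, at -0.83 ± 0.34 (adjusted p = 0.0583). It passed there as lower under some alternatives, including DESeq2 (-0.779, adjusted p = 0.0491) and edgeR with gene length offsets (-0.954, adjusted p = 0.0108).

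Base excision and single-strand break repair was lower in most of its members. Of 10 genes, 6 were lower in AINlowVitD against AIN, 6 in NWD1Ca against NWD1 and 8 in NWD1VitD against NWD1, with medians of -0.857, -1.11 and -1.5. Those lower in all 3 were Xrcc1, Lig3, Parp1, Ogg1 and Neil1. Neil3 was also lower in AINlowVitD against AIN, Mutyh in NWD1Ca against NWD1, and Neil3, Mutyh and Apex1 in NWD1VitD against NWD1. Ung, which removes uracil, and Parp2 were the 2 not called in any in the reported edgeR fit.

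Xrcc1 (ENSMUSG00000051768.8), the scaffold of single-strand break repair, stood at 42.8, 52.5 and 51.5 CPM in AIN, 55.8, 69.2 and 53.1 in NWD1 and 65.6, 48.4 and 45.3 in NWD2. In the second set it stood at 19.5, 23.6 and 27.4 CPM in NWD1Ca, 25.9, 17.2 and 18.3 in NWD1VitD and 21.9, 26.7 and 23.5 in AINlowVitD. AIN_VdrKO lay in the gap between the sets, at 31.1, 31.5 and 29.6 CPM. Fold changes were -1.02 ± 0.21 in AINlowVitD against AIN (adjusted p = 0.00189), -1.20 ± 0.23 in NWD1Ca against NWD1 (adjusted p = 0.00125) and -1.54 ± 0.22 in NWD1VitD against NWD1 (adjusted p = 5.89e-05), each kept under every alternative. Neil3 (ENSMUSG00000039396.4), a glycosylase of dividing cells, stood at 28.5, 23.1 and 19.3 CPM in AIN, 25.6, 44.9 and 27.5 in NWD1 and 39.9, 22.2 and 18.4 in NWD2. NWD1Ca held 16.7, 16.6 and 16.8 CPM, NWD1VitD 11.2, 4.95 and 8.05, and AINlowVitD 7.23, 11.2 and 8.66, with NWD1Ca above the other groups of its set. Fold changes were -1.41 ± 0.33 in AINlowVitD against AIN (adjusted p = 0.00377), -0.75 ± 0.35 in NWD1Ca against NWD1 (adjusted p = 0.112) and -2.04 ± 0.33 in NWD1VitD against NWD1 (adjusted p = 0.000167). Over the alternative fits the Neil3 value in AINlowVitD against AIN ran from -1.97 to -0.688. That call was lost without AIN 1, AIN 2 and NWD1 1, a fit that leaves 1 AIN library. Neil1 (ENSMUSG00000032298.6), a related glycosylase for oxidised bases, stood at 10.5, 11.1 and 12.3 CPM in AIN, 17.3, 12.4 and 10.1 in NWD1 and 12.6, 12.4 and 12.8 in NWD2. NWD1Ca held 6.68, 6.57 and 6.46 CPM, NWD1VitD 6.36, 6.99 and 4.4, and AINlowVitD 7.68, 7.57 and 5.75, without overlap. Fold changes were -0.69 ± 0.25 in AINlowVitD against AIN (adjusted p = 0.0453), -1.03 ± 0.28 in NWD1Ca against NWD1 (adjusted p = 0.0114) and -1.17 ± 0.26 in NWD1VitD against NWD1 (adjusted p = 0.00176), and the first call was lost without any 1 of the 6 libraries compared. The NWD1Ca call was lost without the low-count filter, with only the libraries of both groups, and without NWD1 1 and NWD1 2. The NWD1VitD call was lost in the last of these fits.

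Lig3, the ligase bound to Xrcc1, ran from 12.8 to 48.1 CPM in the first set and from 6.27 to 9.72 in the second. It shares an exon stretch of 1826 bases on the opposite strand with Rffl, which was lower in the same 3 comparisons (-1.37 ± 0.37, -1.97 ± 0.40 and -1.86 ± 0.37). Parp1, the enzyme that marks strand breaks with poly(ADP-ribose), had -1.06 ± 0.34, -1.17 ± 0.35 and -1.46 ± 0.34, all passing. The calls of Lig3, Parp1 and Ogg1 in AINlowVitD against AIN were each lost without AINlowVitD 1 or AINlowVitD 3. In the same comparison Lig3 and Parp1 lost theirs without AIN 3, Parp1 and Ogg1 without AIN 2 and Ogg1 without AIN 1. In NWD1Ca against NWD1 all 3 lost theirs without NWD1Ca 1, Lig3 and Parp1 without NWD1 3, Lig3 without NWD1Ca 2, Lig3 and Ogg1 without NWD1Ca 3, and Ogg1 without NWD1 1 or NWD1 2. Mutyh, the glycosylase that removes adenine opposite oxidised guanine, lost that call without NWD1Ca 1 or NWD1Ca 2. In NWD1VitD against NWD1, Lig3 and Ogg1 lost their calls without NWD1VitD 2, and Lig3 without NWD1 3. Parp2, a relative of Parp1, had -0.05 ± 0.22, 0.08 ± 0.25 and -0.34 ± 0.22, with intervals of -0.48 to 0.39, -0.40 to 0.57 and -0.78 to 0.09, and its sign in the first 2 comparisons changed with the scaling. Per length, Parp2 was the most abundant of the 51 in AIN (77.2 ± 11.2 TPM, SD, n = 3) and in NWD1VitD (29.9 ± 8.45 TPM). At the other end in NWD1VitD was Fanci, at 0.132 ± 0.052 TPM, and in AIN it was Bard1, at 0.82 ± 0.22 TPM. These TPM levels carry the shift between the sets given above.

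The AIN_VdrKO libraries were compared with AIN under the same diet. Vdr itself stood at 297, 482 and 247 CPM in the libraries labelled as Vdr knockout and at 338, 373 and 746 in AIN, a difference of -0.56 ± 0.37 (adjusted p = 0.348). A count over the whole gene does not check the label, since a transcript that lacks only a deleted part is still counted. Of the 51 repair genes, 5 were higher in the libraries labelled as knockout (9.8%, where 7.44% of all genes were) and 2 were lower (3.92%, where 5.09% were), shares close to the background.

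The 5 higher genes were Xpa, given above, Brca2, Bard1, Fancm and Atm. Bard1 stood at 8.56, 8.48 and 7.23 CPM against 2.97, 2.86 and 1.29 in AIN, without overlap, and differed by 1.70 ± 0.47 (adjusted p = 0.024). Brca2 stood at 20.7, 18.4 and 24.3 CPM against 3.73, 8.94 and 6.2, a difference of 1.5 ± 0.46 (adjusted p = 0.037). Fancm stood at 9.33, 7.74 and 13 CPM against 3.35, 5.71 and 2.81, a difference of 1.34 ± 0.40 (adjusted p = 0.0326). Atm stood at 22.8, 21.1 and 26.9 CPM against 12.7, 7.75 and 14.9, a difference of 1.09 ± 0.35 (adjusted p = 0.0445). In each the libraries of the 2 groups did not overlap. The 2 lower genes were Xrcc1, at -0.80 ± 0.23 (adjusted p = 0.0287), and Xrcc3, at -0.86 ± 0.28 (adjusted p = 0.049), whose values stand above and did not overlap either. Of the 51, 7 were higher without overlap (13.7%, where 14% of all tested genes were). Another 5 were lower without overlap (9.8%, where 14.9% of all genes were), so lack of overlap was no more frequent than over all genes.

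Of these 7 calls only that of Xpa was kept under every alternative. The number of the 51 called was 2 without AIN 1, 8 without AIN 2, 3 without AIN 3, 3, 4 and 2 without AIN_VdrKO 1, 2 and 3 in turn, 2 with offsets for gene length, 1 with only the 6 libraries in the fit and 13 without AIN 1, AIN 2 and NWD1 1. Bard1 lost its call without AIN 3, Brca2 and Fancm without AIN 1, AIN 3 or AIN_VdrKO 3, Brca2 also without AIN_VdrKO 1, and Xrcc1 and Xrcc3 without AIN 1, AIN 3 or any 1 AIN_VdrKO library. Atm lost it without any 1 AIN_VdrKO library, AIN 1 or AIN 2. Fance and Nbn gained a call as higher without AIN 2 (1.92 and 1.33) and Wrn without AIN 3 (1.3). The AIN_VdrKO libraries also lay between the sets on the first principal component and in mitochondrial ribosomal RNA, and the part of that in these values was not tested.

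Within the second set no gene of the 51 passed, and no gene of any kind did (0% of 16050 in NWD1VitD against NWD1Ca, AINlowVitD against NWD1Ca and NWD1VitD against AINlowVitD). At an unadjusted p under 0.05, edgeR gave 6, 3 and 0 of the 51, all lower, where 1.21%, 0.511% and 1.55% of all genes were lower and 1.1%, 0.791% and 1.36% higher, and DESeq2 and limma called none of the 51. In NWD1VitD against NWD1Ca the median of the 51 was -0.365 (all genes, -0.0309) and 48 of the 51 lay below 0. Neil3 was the furthest, at -1.29 ± 0.37 (adjusted p = 1): NWD1Ca held 16.7, 16.6 and 16.8 CPM and NWD1VitD 11.2, 4.95 and 8.05, without overlap. The other 5 were Xrcc3 (-0.76 ± 0.29), Exo1 (-0.96 ± 0.39), Fanca (-0.92 ± 0.37), Fancb (-1.15 ± 0.51) and Rad54l (-0.80 ± 0.37), each with an adjusted p of 1.

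In AINlowVitD against NWD1Ca the median of the 51 was -0.219 (all genes, 0.0202), with 40 below 0. Neil3 (-0.99 ± 0.33), Mlh3 (-0.77 ± 0.35) and Fancd2 (-0.80 ± 0.38) were the 3 genes with an unadjusted p under 0.05. There the fold changes ran against gene length among the 51 (Spearman's rho -0.623, against -0.193 over all genes). In NWD1VitD against AINlowVitD the median was -0.186 (all genes, -0.0552). The 95% intervals lay within 1 log2 unit of 0 for 23, 32 and 34 of the 51 genes in the 3 comparisons.

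Lists of related genes were read beside the 51. Of 84 other DNA repair genes, 23 were lower and 5 higher in AINlowVitD against AIN, 23 and 5 in NWD1Ca against NWD1, and 37 and 3 in NWD1VitD against NWD1. Of 50 genes of DNA replication and S phase, 19, 17 and 36 were lower and none was higher, with medians of -0.708, -0.619 and -1.30. The replicative polymerase subunits Pold1 and Pold2 were among them in each comparison. Of 38 genes of G2 and mitosis, 20, 12 and 28 were lower and none was higher, with medians of -0.948, -0.469 and -1.27, the mitotic kinase Plk1 among them. Of 27 p53 target genes tested, a list that also holds Ercc5 of the 51, 6, 6 and 7 were lower and 2, 2 and 4 higher. The medians of that list were -0.343, -0.273 and -0.259, and it went both ways, beside the 16.3%, 14.9% and 20.6% of all genes that were lower and the 15.1%, 15.6% and 19.9% that were higher.

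**Figure D5:**
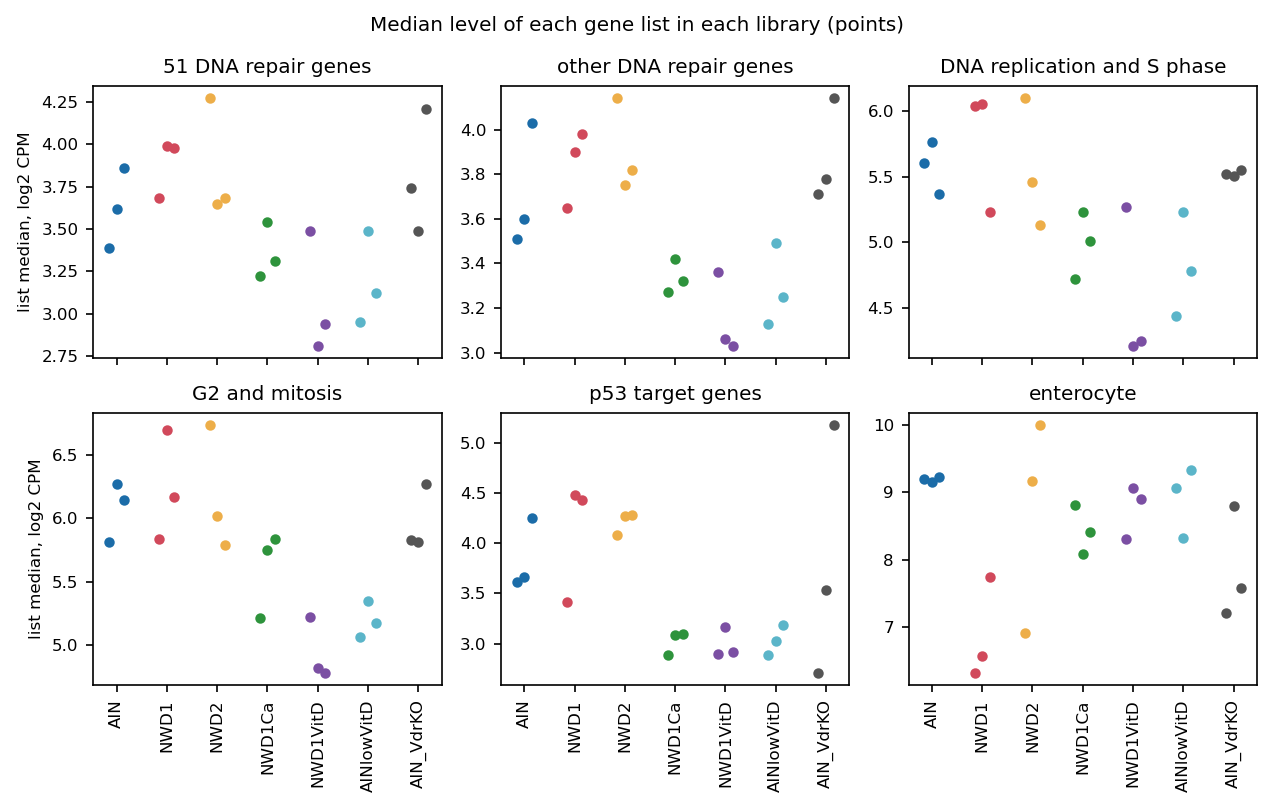
Median log2 CPM of 6 gene lists in each library (points) by group. The 51 DNA repair genes run from 3.39 to 4.27 in AIN, NWD1 and NWD2 and from 2.81 to 3.54 in NWD1Ca, NWD1VitD and AINlowVitD, and the list of DNA replication and S phase runs from 5.13 to 6.1 and from 4.21 to 5.27.

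Within the sets, none of the 84 other repair genes, 50 S phase genes or 38 mitotic genes passed in any of the 6 comparisons. In AIN_VdrKO against AIN the counts were 6 higher and 2 lower of the 84, 0 and 2 of the 50, and 1 and 1 of the 38. Of all tested genes 7.44% were higher and 5.09% lower in that comparison. The single higher mitotic gene there was Mki67 (0.94 ± 0.28, adjusted p = 0.0321). The summed level of the 51 was 752.6 to 1031 CPM in AIN, 945.3 to 1311 in NWD1, 913.8 to 1353 in NWD2, 624 to 783.2 in NWD1Ca, 525.9 to 764.7 in NWD1VitD, 580.1 to 734.1 in AINlowVitD and 833.4 to 1131 in AIN_VdrKO.

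Markers of the cell types a crypt sort could hold were read the same way. Of all tested genes 16.3% were lower and 15.1% higher in AINlowVitD against AIN. The shares were 14.9% and 15.6% in NWD1Ca against NWD1, and 20.6% and 19.9% in NWD1VitD against NWD1. Of 15 Lgr5 stem cell markers tested, 1 was lower and 2 higher in AINlowVitD against AIN, 4 lower and none higher in NWD1Ca against NWD1, and 6 lower and 1 higher in NWD1VitD against NWD1. The list's summed level was 1573 to 2263 CPM in NWD1Ca and 1344 to 3452 in NWD1VitD, below the 7111 to 9853 of NWD1 without overlap. In AINlowVitD it was 1172 to 2938 CPM, overlapping the 2375 to 4456 of AIN. The median log2 fold changes of the list were 0.633, -0.4 and -0.574 in the 3 comparisons. Lgr5 was present in every library, from 9.49 to 87.2 CPM. Enterocyte markers were higher in the last 2 comparisons (7 and 12 of 22) and in 1 of 22 in AINlowVitD against AIN. Their summed level was 21240 to 40200 CPM in NWD1Ca, 29260 to 55720 in NWD1VitD and 21930 to 69550 in AINlowVitD. Paneth cell markers summed to 4644 to 6594 CPM in AIN, 3791 to 12010 in NWD1, 10720 to 20050 in NWD1Ca, 16310 to 71950 in NWD1VitD and 11050 to 52510 in AINlowVitD. A sum follows the most abundant markers. The median log2 fold change of the Paneth list was 0.447 in AINlowVitD against AIN and 0.492 in NWD1VitD against NWD1. In NWD1Ca against NWD1 it was -0.911, opposite to the sum. Goblet cell markers summed to 15780 to 32410 CPM in AIN and 46580 to 65900 in AINlowVitD, and to 9774 to 25400 in NWD1, 51420 to 57900 in NWD1Ca and 42690 to 95320 in NWD1VitD. Of 11 goblet markers, 4, 3 and 4 were higher and 0, 2 and 1 lower in the 3 comparisons. Enteroendocrine markers summed to 2448 to 2621 CPM in AIN and 6386 to 10170 in AINlowVitD, and to 490.1 to 3251 in NWD1, 5626 to 9208 in NWD1Ca and 7101 to 13120 in NWD1VitD. Of 13, 4, 4 and 6 were higher and 0, 1 and 1 lower. For both lists the summed level of the second-set groups lay above that of their first-set counterparts without overlap. The median level of the enteroendocrine list did so too, but that of the goblet list overlapped. Goblet medians were 9.66 to 10.5 log2 CPM in AIN and 9.35 to 9.81 in AINlowVitD. They were 8.82 to 10.3 in NWD1, 9.82 to 10.6 in NWD1Ca and 9.3 to 10.7 in NWD1VitD. Of 11 Paneth markers, 3, 1 and 4 were higher and 0, 1 and 1 lower, and of 11 tuft cell markers 3 were lower, all in NWD1Ca against NWD1. In AIN_VdrKO against AIN, 5 of 15 Lgr5 stem cell markers were higher and 2 of 22 enterocyte markers lower, where 7.44% and 5.09% of all genes were. Leukocyte markers summed to at most 83.79 CPM in any library, and Ptprc, the pan-leukocyte surface marker, ran from 3.78 to 56 CPM while Cd3e, of T cells, ran from 0 to 1 CPM. Col1a1, the fibroblast collagen, was at most 0.106 CPM. The part of these markers in the repair genes' values was not tested.

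In the GENCODE M21 annotation 22 of the 51 genes share exon bases with a gene on the opposite strand, 17 of them with a protein-coding gene, and 4 share bases with a gene on the same strand. Reads from such stretches cannot be told apart in these counts. The longest stretch is 256 bases for Fancd2 and Fancd2os and 441 for Fanca and Zfp276. Zfp276 passed, as lower, in NWD1VitD against NWD1 (-1.01 ± 0.32).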

How the data were processed

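RNA was measured in 21 libraries of sorted intestinal Lgr5 cells, made with SMART-Seq v4 and Nextera XT per the labels' protocols, a protocol that does not mark strand. The authors deposited raw gene counts and TPM (transcript levels that the authors scaled for gene length). The submitters' processing notes name STAR 2.4.2a, HTSeq 0.6.1, edgeR and the mm9 build. The sources used here do not name the annotation release. The deposited counts hold 37310 genes and 92 spike-ins, and the spike-ins entered neither the library sizes nor the tests of genes.

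Counts were tested with edgeR 4.0.16 in R 4.3.3: filterByExpr by group, TMM scaling, 1 quasi-likelihood fit over all 21 libraries with group and sex, two-sided F tests and Benjamini-Hochberg adjustment over 16050 genes. The standard error is the fold change divided by the square root of F, and 95% intervals are 1.96 standard errors either side. DESeq2 1.42.0, limma 3.58.1 on log2(TPM + 1) and other fits served as alternatives. The pipeline was tested on simulated counts. The labels number 3 samples a group without saying which animals they came from, so p-values measure only the spread between these samples, which may be technical. The members, the gene lists and the sets of libraries were chosen with earlier results of these data known. Every member may be named. Values in every library are given, by rule, for the 2 members of each route called in most comparisons and for both genes of 7 pairs. GC content and gene models came from GENCODE M21, and promoters from RefSeq. Some items are not reported here.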

Additional observations from a re-analysis of the deposited data

How the results depend on the processing

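Counts of called genes of the 51 kept within 1.5 times the reported count under DESeq2, RLE scaling, no low-count filter and no sex term. With limma on log2(TPM + 1), 40 were called in AINlowVitD against AIN, 2 in AIN_VdrKO against AIN, 39 in NWD1Ca against NWD1 and 49 in NWD1VitD against NWD1. In AIN_VdrKO against AIN the count was 2 with gene length offsets, 2 with GC content and gene length offsets (chosen after seeing the data), 1 with only the libraries of both groups and 13 without AIN 1, AIN 2 and NWD1 1. Leaving out 1 library at a time gave 0 to 3 in NWD2 against AIN, 10 to 18 in AINlowVitD against AIN, 2 to 8 in AIN_VdrKO against AIN, 12 to 22 in NWD1Ca against NWD1 and 23 to 34 in NWD1VitD against NWD1. The cause was not tested. Over all genes, DESeq2 called 241 higher and 561 lower in NWD1 against AIN, where edgeR called 17 and 106, and 275 and 69 in NWD2 against NWD1, where edgeR called 0 and 1. None of the 49 called fold changes of the genes named by rule reversed under any alternative run. Replicate numbers did not pair the samples: in no comparison were all 3 correlations of same-numbered samples over 0.1. With the replicate number as a block, 20, 7, 21 and 29 of the 51 were called in AINlowVitD against AIN, AIN_VdrKO against AIN, NWD1Ca against NWD1 and NWD1VitD against NWD1, and 0 in the 6 comparisons within a set. With 3 libraries a group the median standard error of the 51 was 0.336 to 0.376 on the log2 scale, which limits what the comparisons within a set could detect.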
